A study of Mus musculus with 27 samples.

Results

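The 2 Mbp of chromosome 5 past the 5′ end of *Bod1l* lie outside the topologically associating domain (TAD) that holds *Nkx3-2* and its limb enhancers, and were described here by their 4C-Seq contacts with those enhancers. The stretch, chr5:41844316-43844315 (mm10), starts 34.3 kbp past the end of the TAD (chr5:41050000-41810000). The paper took its TADs from mouse embryonic stem cells, so this end was not mapped in limb buds or liver. Members of the stretch were the *BglII* fragments with a midpoint inside it, 718 of the 51862 fragments of the chromosome. They were chosen by position only.

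All samples were C57BL/6 mouse embryos at E14.5 with no treatment named, and the recorded substrain differed between the labels (C57BL/6Ncrl) and the protocol (C57BL/6NJ). The tissues were forelimb buds, hindlimb buds and liver, each with 3 replicates, and each replicate was a pool of 5 to 6 embryos. Every chromatin template was amplified from the viewpoints N1, N2 and N3, which gave 27 libraries. The N2 viewpoint lies downstream of its enhancer rather than on it, and all viewpoints face the *Nkx3-2* gene body and therefore the side of the chromosome studied here. Limb buds and liver are mixtures of cell types, so fewer cells with a contact and fewer contacts per cell could not be told apart.

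4C-Seq cuts crosslinked chromatin with a restriction enzyme, rejoins ends that lie close together in the nucleus, and sequences whatever became joined to a chosen anchor, the viewpoint. Contacts are densest close to the viewpoint, decline with distance and are usually sparser past the end of a TAD, a stretch of chromosome within which sequences meet each other more often than sequences outside. *Nkx3-2* encodes a homeobox factor that delays cartilage maturation, and *Bod1l* encodes a protein that protects stalled replication forks.

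Each deposited value is a whole number of reads on a fragment. A contact is read from the nested viewpoint primer across the *BglII* site (AGATCT), so the primers are shown first, with their last 8 bases, the 3′ end, in capitals. They lie on the plus strand at chr5:41165733-41165752 (N1), chr5:41403985-41404010 (N2) and chr5:41535790-41535813 (N3). In the 3 lines after them the capitals mark the *BglII* site at the ends of fragments on which the results below turn, read from GRCm38.p6. These are both ends of the *Cc2d2a* fragment with reads in every N3 library, at chr5:43713474-43713539 and chr5:43720330-43720395, and the cut between 2 adjoining fragments with reads in 8 N3 libraries, at chr5:42994313-42994378.
N1 nested primer: cttgagtttgccACCCAAAC
N2 nested primer: gcgatctgaagaactaagAAGCTTAG
N3 nested primer: gttgtaagtagcagacACAGAGAT
*Cc2d2a* fragment, left end: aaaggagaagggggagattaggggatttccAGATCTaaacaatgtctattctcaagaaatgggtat
*Cc2d2a* fragment, right end: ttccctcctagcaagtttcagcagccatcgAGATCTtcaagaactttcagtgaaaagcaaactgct
Cut between the adjoining fragments: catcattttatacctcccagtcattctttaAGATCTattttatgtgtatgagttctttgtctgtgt
The N3 primer ends inside its own *BglII* site. For the N1 primer the site starts 3 bases past the primer end, and for the N2 primer 2 bases past it.

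Whole libraries held 2984 to 20134 reads from N1, 165471 to 570405 from N2 and 924023 to 2376866 from N3. The stretch drew 520 reads from N1, 1555 from N2 and 6904 from N3, 8979 in all. At these depths a count of 0 on a fragment allows up to 3 reads, a limit that came to 149 to 1005 RPM (reads scaled to a library of 1000000) for N1. For the deeper N2 and N3 libraries it came to 5.26 to 18.1 RPM and 1.26 to 3.25 RPM. These limits, like the intervals below, cover counting error only, because PCR copies were not told apart by molecular identifiers. Liver replicate 3 stood apart from all 3 viewpoints. It had reads on 56 fragments of the stretch from N1, 164 from N2 and 173 from N3, against 1 to 20, 4 to 50 and 24 to 59 in the other 8 libraries of each viewpoint. On chromosome 5 beyond 20 kbp it had 977, 2484 and 3672, against 57 to 324, 239 to 1163 and 967 to 1935. The stretch held 5.73% of these from N1, within the range of the others (1.22 to 7.14%). From N2 and N3 it held 6.60% and 4.71%, above the others (0.84 to 4.30% and 2.16 to 3.05%).

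Of the 718 fragments, 358 (49.9%) carried a read in at least 1 of the 27 libraries and 360 carried none. N1 reached 91 fragments, N2 207 and N3 257, and 37 were reached from all 3 viewpoints. Recurrence was low: 144 fragments had reads in a single library, 31 in 5 or more, and the highest number was 10 libraries. Among N1 fragments 14 recurred in at least 2 N1 libraries, and the numbers for N2 and N3 were 58 and 100. Over the 27 libraries there were 832 fragments with reads, counted once per library, and 271 of them (32.6%) rested on 1 read.

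The fragments reached and not reached differed in length and repeat content. Median length was 2.18 kbp with reads and 0.985 kbp without. In 4 groups of equal size ordered from the shortest to the longest fragments, 31.1, 47.5, 58.7 and 62.2% carried reads. The share of bases marked as repeats in the reference had a median of 22.1% with reads and 58.6% without. Of the 250 fragments with at least 50% repeat bases, 20.8% carried reads, against 65.4% of the 468 others, and 115 of the 119 fragments made up of repeats alone had none. Since reads mapped with low confidence had been removed, these fragments could hold contacts that were not counted. GC content had medians of 40.6% with and 38.9% without reads.

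The first comparison set the first 100 kbp past *Bod1l* (44 fragments) against the last 100 kbp inside the TAD (37 fragments) within each library. From N1, 2.02% ± 3.30 (SD, n = 9) of fragments beyond carried reads, against 12.3% ± 9.08 inside. From N2 the shares were 9.09% ± 11.2 beyond and 21.9% ± 20.2 inside, and from N3 they were 11.9% ± 16.3 and 23.4% ± 18.6. Without liver replicate 3 the shares beyond and inside were 1.14% and 10.1% from N1, 5.97% and 15.9% from N2, and 6.53% and 17.6% from N3 (n = 8). The share was lower beyond in 8 of 9 N1 libraries, all 9 N2 libraries and 8 of 9 N3 libraries. The exceptions were N1 hindlimb replicate 2, without a read in either interval, and N3 hindlimb replicate 2, with 3 fragments beyond and 2 inside.

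As numbers of fragments with reads, beyond against inside, the N1 libraries had 0 and 8, 0 and 4, and 2 and 4 in forelimb replicates 1 to 3. They had 0 and 6, 0 and 0, and 0 and 4 in hindlimb, and 2 and 2, 0 and 2, and 4 and 11 in liver. For N2 the pairs were 4 and 4, 0 and 7, and 2 and 9 in forelimb, 2 and 2, 2 and 2, and 2 and 9 in hindlimb, and 9 and 11, 0 and 3, and 15 and 26 in liver. For N3 they were 3 and 6, 2 and 7, and 2 and 7 in forelimb, 2 and 4, 3 and 2, and 5 and 9 in hindlimb, and 5 and 9, 1 and 8, and 24 and 26 in liver. No library had more than 5 fragments beyond, except liver replicate 1 from N2 and liver replicate 3 from N2 and N3.

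The log2 ratio of the shares, with 0.5 added to each number of fragments, averaged −2.32 ± 1.57 (SD, n = 9) from N1, −1.54 ± 1.43 from N2 and −1.21 ± 0.87 from N3. In the two-sided exact sign-flip permutation test, adjusted over the 3 viewpoints, p was 0.00586, 0.00586 and 0.00781. The smallest unadjusted p that the sign flips of 9 libraries allow is 0.00391. The flips treat the 9 libraries as independent, here and in the sign-flip tests below. Whether tissues of the same replicate number came from the same embryos was not stated. With that number as a block, 3 blocks cannot give an exact p below 0.25, so no such ratio would be called. A library with equal numbers has a log2 ratio of −0.25 because the intervals differ in fragments. Without N1 hindlimb replicate 2 the N1 mean was −2.58 (adjusted p = 0.00781 in the exact test, n = 8). Fragments beyond were shorter, with a median of 1.14 kbp against 2.02 kbp, and 31.8% of them against 8.11% had at least 50% repeat bases. Per kbp the means were −2.06, −1.27 and −0.94 (adjusted p = 0.0234, 0.0312 and 0.0234), and among fragments with fewer repeats they were −2.07, −1.05 and −1.38 (adjusted p = 0.0234, 0.0469 and 0.0117, all exact tests).

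The interval beyond is also the farther one. Set against the ratio at the same distances on the other side of the viewpoint, the difference was −3.11 for N1 and −1.37 for N3 (adjusted p = 0.0352 for both, exact sign-flip test), and −0.49 for N2 (adjusted p = 0.402). For N1 the ratio on the other side was 0.79 in most libraries, liver included. That is the value for equal numbers of fragments with reads in both intervals there. The N1 difference is thus largely the ratio above minus a constant and gives little control for distance. For N2 the difference was within the spread between libraries. The intervals on the other side lie outside the TAD for N1 and inside it for N3. For N2 the nearer of them spans the start of the TAD and the farther lies outside it, so that ratio also crosses a TAD end. The 3 differences are therefore not alike as controls for distance. The comparison with the other side, the one per kbp and the one on repeats were chosen after seeing the data.

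**Figure D1:**
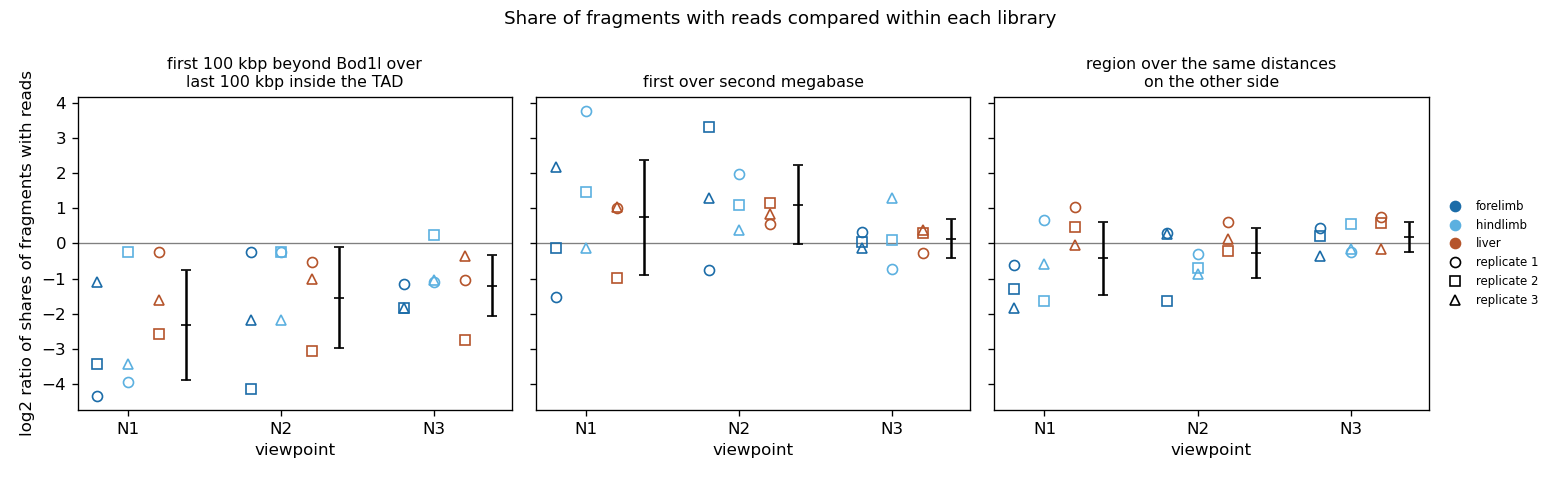
Log2 ratio of the share of fragments with reads, within each library, for the first 100 kbp beyond *Bod1l* against the last 100 kbp of the TAD (left), the first against the second megabase (middle) and the stretch against the same distances on the other side of the viewpoint (right). Colours are tissues, shapes are replicates, black bars are mean ± SD over the 9 libraries of a viewpoint, and the grey line at 0 means equal shares. In the left panel 1 of 27 libraries, N3 hindlimb replicate 2, lies above 0.

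Along the whole stretch the share of fragments with reads was followed in 20 steps of 100 kbp. The first step is the interval beyond that was compared above. The highest step was the fourth for N1, with 6.55% of fragments per library, and the first for N2 (9.09%) and N3 (11.9%). The fourth step holds part of *Gm16223*, a predicted protein-coding gene, and 84.6% of its 39 fragments had a read in some library, more than any other step. Averaged over steps 1 to 5, 6 to 10, 11 to 15 and 16 to 20, the shares were 3.12, 1.00, 1.37 and 1.16% from N1. They were 7.25, 3.33, 2.14 and 4.39% from N2, and 9.30, 5.49, 6.16 and 6.79% from N3. From every viewpoint the second block of 500 kbp was lower than the first. The N2 share fell again into the third block, and from N2 and N3 the last block was higher than the third. Without liver replicate 3 the same averages were 1.69, 0.41, 0.80 and 0.76% from N1, 3.20, 1.67, 0.86 and 2.26% from N2, and 5.85, 4.18, 4.07 and 5.27% from N3, and the highest step for N3 was then the seventh (9.91%).

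The ninth step was nearly empty. It carried 13 reads over all 27 libraries, on 5 of its 36 fragments, and none from N1. In it 58.3% of fragments had at least 50% repeat bases, as against 34.8% in the whole stretch. From N1, 6 of the 20 steps had no read in any library, and the last step, with *Fbxl5* and *Bst1*, was among them.

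**Figure D2:**
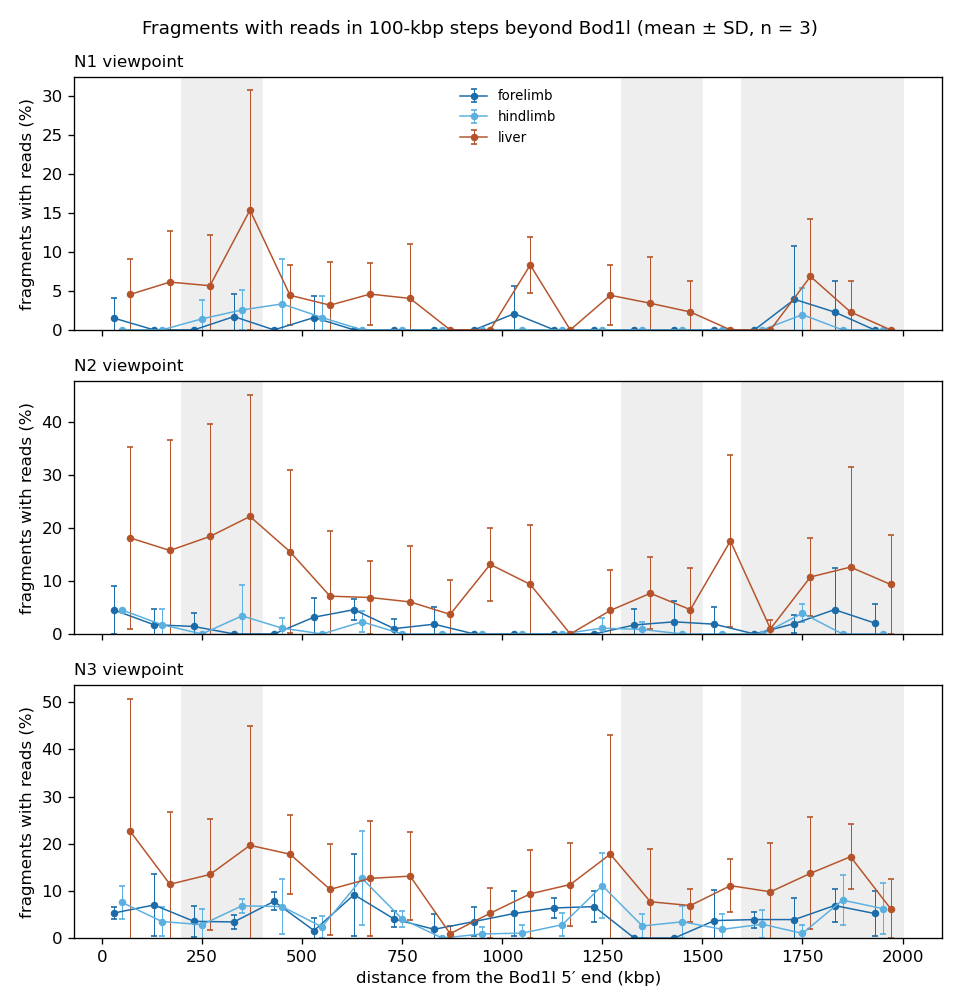
Percentage of fragments with reads in 100-kbp steps against the distance from the *Bod1l* 5′ end, for N1 (top), N2 (middle) and N3 (bottom), with points for the mean of the 3 libraries of a tissue and bars for ± SD, drawn down to 0 only. Grey bands mark steps that overlap a protein-coding gene. Liver lies above both limb tissues in most steps, with wide bars that include liver replicate 3, and the ninth step is near 0 from every viewpoint.

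The first megabase (376 fragments) was compared with the second (342 fragments) in each library. From N2, 5.44% ± 9.11 of fragments carried reads in the first and 3.15% ± 5.17 in the second (SD, n = 9), with a higher share in the first in 8 of 9 libraries. These shares were 2.49% and 1.54% without liver replicate 3. The mean log2 ratio of 1.10 ± 1.12 had an adjusted p of 0.0469 (exact sign-flip test). When any library other than forelimb replicate 1 was left out, it ranged from 0.82 to 1.18 with an adjusted p of 0.0703 or 0.0938. In numbers of fragments, first against second, the N2 libraries had 7 and 11, 5 and 0, and 9 and 3 in forelimb, 6 and 1, 3 and 1, and 6 and 4 in hindlimb, and 31 and 19, 8 and 3, and 109 and 55 in liver. The reads themselves gave 0.27 (adjusted p = 0.711). For N1 the ratio of shares was 0.74 ± 1.64 (adjusted p = 0.363) and for N3 it was 0.14 ± 0.56 (adjusted p = 0.52), both within the spread between libraries in the exact test. By reads the N3 value was −2.07 (adjusted p = 0.0117), which rested on the *Cc2d2a* fragment described below: without it the value was −0.21 (adjusted p = 0.707).

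Against the stretch at the same distances on the other side of the viewpoint, the share of fragments with reads was not detectably different. The other side of N1, N2 and N3 held 687, 732 and 748 fragments. Shares were 1.67% ± 2.43 here against 1.81% ± 2.36 there from N1, 4.35% ± 7.20 against 4.17% ± 6.31 from N2, and 6.86% ± 6.63 against 6.61% ± 7.78 from N3 (SD, n = 9). The mean log2 ratios were −0.43 ± 1.04, −0.27 ± 0.71 and 0.18 ± 0.42, all with an adjusted p of 0.305 in the exact sign-flip test. Without liver replicate 3 the shares were 0.905% here and 1.04% there from N1, 2.04% and 2.10% from N2, and 4.70% and 4.04% from N3. Counted as reads, the N3 log2 ratio was 1.47 with an adjusted p of 0.0234 in the exact test, a comparison that includes the *Cc2d2a* fragment described below. Without the fragments on either side that had reads in every N3 library, it was 0.33 (adjusted p = 0.562, exact test), a setting chosen after seeing the data.

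To compare viewpoints and tissues at unequal depth, the fragments with reads in the stretch were expressed as a share of all chromosome 5 fragments with reads more than 20 kbp from the viewpoint. The share was higher in liver than in limb buds from N1 and N2. From N1 it was 2.97% ± 1.40 in limb (SD, n = 6) and 6.35% ± 0.72 in liver (SD, n = 3). Forelimb replicates 1 to 3 had 8 of 203, 4 of 134 and 2 of 164 fragments, and hindlimb replicates had 7 of 139, 1 of 57 and 4 of 139. The liver replicates had 20 of 324, 6 of 84 and 56 of 977. The limb libraries reached up to 5.04% and the liver libraries started at 5.73%, so the groups did not overlap, although the exact 95% binomial interval of single libraries was wide, from 2.05 to 10.1% for the highest limb library and from 4.36 to 7.38% for the lowest liver library.

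From N2 the share was 2.24% ± 0.92 in limb and 4.80% ± 1.61 in liver. Forelimb replicates had 18 of 580, 5 of 592 and 12 of 384 fragments, hindlimb replicates had 7 of 371, 4 of 239 and 10 of 353, and liver replicates had 50 of 1163, 11 of 315 and 164 of 2484. The highest limb value was 3.12% and the lowest liver value 3.49%, again without overlap. From N3 the share was 2.57% ± 0.25 in limb and 3.34% ± 1.25 in liver, where 1 liver library, replicate 2 with 2.26%, lay among the limb libraries (2.16 to 2.87%).

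Limb minus liver was −3.38 percentage points for N1 and −2.55 for N2, each with p = 0.0119, the smallest that the 84 arrangements of the exact two-sided permutation test allow, and an adjusted p of 0.0179 over the 3 viewpoints. For N3 it was −0.77 with an adjusted p of 0.155. Without liver replicate 3 the N2 difference was −1.65 (adjusted p = 0.155, exact test) and the N1 difference −3.69 (adjusted p = 0.0536), and the N3 difference was −0.086 (adjusted p = 0.786). Without liver replicate 2 the N3 difference was −1.31 (adjusted p = 0.0357, exact test). With the share of chromosome 5 reads in place of fragments, the difference was −0.47 percentage points for N1 (adjusted p = 0.905) and −2.31 for N2 (adjusted p = 0.143). The unadjusted p of the N2 difference in reads was 0.0476 in the same exact test. With fragments within 10 Mbp as the whole, the difference was −6.72 for N1 and −5.52 for N2, and the adjusted p was 0.0893 for both in the exact permutation test. With the replicate number as a block it was 0.0556 for both.

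**Figure D3:**
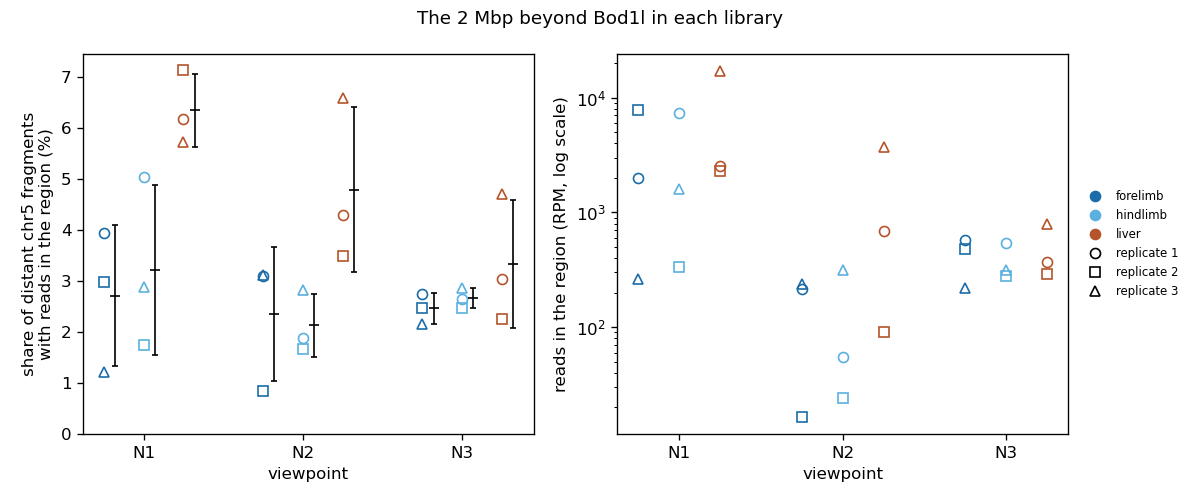
Each of the 27 libraries by viewpoint, tissue (colour) and replicate (shape), as the percentage of chromosome 5 fragments with reads beyond 20 kbp that lie in the 2 Mbp past *Bod1l* (left, black bars mean ± SD, n = 3) and as RPM on a log axis (right). On the left, all liver libraries lie above all limb libraries from N1 and N2 and not from N3, while on the right the tissues overlap from every viewpoint.

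Between viewpoints, libraries of the same tissue and replicate came from the same template and were compared in pairs. N1 minus N2 was 1.00 ± 1.85 percentage points (higher in 7 of 9), N1 minus N3 1.27 ± 1.90 (7 of 9) and N2 minus N3 0.27 ± 1.17 (5 of 9). The adjusted p over these 3 pairs was 0.193, 0.193 and 0.5 in the exact sign-flip test. The order turned when only fragments within 10 Mbp were taken as the whole: the differences were then −0.50, −4.20 and −3.71, with an adjusted p of 0.754 for the first and 0.041 for the others.

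In RPM the tissues overlapped from every viewpoint. N1 libraries had 1987, 7874 and 263 RPM in forelimb, 7329, 335 and 1589 in hindlimb, and 2518, 2311 and 16972 in liver. N2 libraries had 216, 16.6 and 238 in forelimb, 55.5, 24.2 and 314 in hindlimb, and 688, 90.5 and 3747 in liver. N3 libraries had 576, 476 and 220 in forelimb, 545, 277 and 315 in hindlimb, and 373, 291 and 796 in liver. Replicates of a tissue thus differed over a wide range, and the N1 values rested on 1 to 237 reads.

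On the log2 scale, with 0.5 reads added, limb minus liver was −1.42, −2.83 and −0.23 from N1, N2 and N3 (adjusted p = 0.482, 0.321 and 0.607, exact permutation test, 6 against 3 libraries). Forelimb minus hindlimb was −0.13, 0.32 and 0.11, with an adjusted p of 1 for each, in a design of 3 against 3 libraries whose smallest possible exact p is 0.1.

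Counts in 100-kbp windows over the whole chromosome were tested with edgeR, and no window was called between limb and liver (0%) or between forelimb and hindlimb (0%) from any viewpoint. The windows tested were 15 for N1, 84 for N2 and 495 for N3, of which 2, 13 and 45 had an unadjusted p under 0.05 between limb and liver and 0, 5 and 41 between forelimb and hindlimb. DESeq2 called 0, 2 and 8 windows of the chromosome in the first comparison and 0, 1 and 11 in the second. Of the 20 windows of the stretch, none had enough reads for the test from N1, 3 had from N2 and 16 from N3. Between limb and liver, 1 of the 3 N2 windows and 1 of the 16 N3 windows had an unadjusted p under 0.05, and both were the sixteenth window, chr5:43344316-43444315, between *Cpeb2* and *C1qtnf7*. DESeq2 called that window from N2 and none of the others in the stretch. The window passed the count filter through the liver libraries, where it is high, so its values are a description and support no difference. It held 46, 20 and 94 N2 reads in liver, 2 in forelimb replicate 1 and 0 in the other 5 limb libraries. Its fitted log2 difference, limb minus liver, was −7.56 for N2 (edgeR adjusted p = 0.0746) and −4.74 for N3 (edgeR adjusted p = 0.524). From N3 it held 24, 2 and 160 reads in liver, 14 in forelimb replicate 2, 2 in hindlimb replicate 1 and 0 in the other 4 limb libraries. This window was chosen for description after its values were seen.

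Over the 16 N3 windows, 13 had a negative limb minus liver difference, with a median of −2.42 against −0.39 over all 495 windows tested on the chromosome. A window can pass the count filter through the libraries where it is high, liver included. These numbers and medians are therefore a description and support no difference. Liver replicate 3 alone held 1893 N3 reads of the stretch. Without it, 17 windows of the stretch and 649 of the chromosome were tested, 13 of the 17 had a negative difference, and the medians were −1.28 and −0.20. Between forelimb and hindlimb the N3 median was 1.56 against 0.08, with 10 of the 16 higher in forelimb. Without forelimb replicate 1 the median was −0.14. Without forelimb replicate 2 it was −0.73, with 13 of 19 windows lower in forelimb. With any other library left out it stayed above 0, from 0.096 to 1.52. Only the fourteenth window, which overlaps the start of *Cpeb2* at its far end alone, had an unadjusted p under 0.05 in edgeR. It was lower in forelimb (−6.86, edgeR adjusted p = 0.541). It held 0 N3 reads in each forelimb library, 0, 16 and 11 in hindlimb, and 15, 0 and 13 in liver. It passed the count filter through hindlimb and liver, so these values are a description.

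The first window had reads in 3 N1, 7 N2 and 9 N3 libraries. From N2 these were 17, 0 and 2 reads in forelimb, 8, 2 and 14 in hindlimb, and 93, 0 and 107 in liver. From N3 they were 8, 2 and 84 in forelimb, 2, 3 and 18 in hindlimb, and 76, 1 and 88 in liver. In both series the limb and liver libraries overlapped. The last window had reads in no N1 library, 3 N2 libraries and 6 N3 libraries, the highest being 174 reads in N3 forelimb replicate 1.

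The fragment with reads in the most libraries, chr5:43713505-43720360, was also the one with the highest N3 level. It lies inside *Cc2d2a*, which encodes a protein of the transition zone of primary cilia, overlaps 6 of its exons, and is 6.86 kbp long with 14.4% repeat bases. The 9 N3 libraries gave 448, 247 and 165 reads in forelimb, 609, 208 and 279 in hindlimb, and 391, 326 and 277 in liver. These are 198 ± 79.9 RPM (SD, n = 9), from 116 to 374, with limb and liver overlapping. From N2 it had 6 reads in liver replicate 3 and 0 in the other 8 libraries, whose limit of up to 18.1 RPM lies below every N3 value. From N1 it had 0 reads, with a limit of 149 to 1005 RPM. The lowest of these limits, in N1 forelimb replicate 1, lies below the N3 mean, and the highest lies above every N3 value. A level like that from N3 was thus detectable in some N1 libraries and not in others. Whether the N1 level was lower over all libraries was not tested.

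This fragment held 2950 of the 6904 N3 reads of the stretch (42.7%), from 14.6% in liver replicate 3 to 81.2% in hindlimb replicate 2. Neither neighbour had a read from N3. On the whole chromosome, 123 fragments more than 20 kbp from the N3 viewpoint had reads in all 9 N3 libraries, and 117 of them lie more than 2 Mbp away. The last 8 bases of the N3 primer, ACAGAGAT, occur once in the fragment, on the minus strand, and 14.3% of the fragments of the stretch hold a run of at least as many bases from the 3′ end of that primer. Whether the reads arose from priming at such a match was not tested.

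Reads at the other recurrent fragments were few. The adjoining fragments chr5:42987986-42994343 and chr5:42994344-42998044 had reads in the same 8 N3 libraries and in none from N1 or N2. The second of them had 102, 39 and 15 reads in forelimb, 35, 0 and 2 in hindlimb, and 13, 8 and 3 in liver, and the first had 101, 39 and 13, then 35, 0 and 2, then 15, 8 and 3. Forelimb replicates 1 and 2 were the highest libraries on both, and the 3 tissues overlapped. The fragment chr5:43559599-43567630, inside *C1qtnf7*, had reads in 2 N1, 1 N2 and 6 N3 libraries, with at most 14 reads in each, and chr5:42229596-42232331, in no gene, had reads in 1 N1, 1 N2 and 7 N3 libraries, with at most 6.

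**Figure D4:**
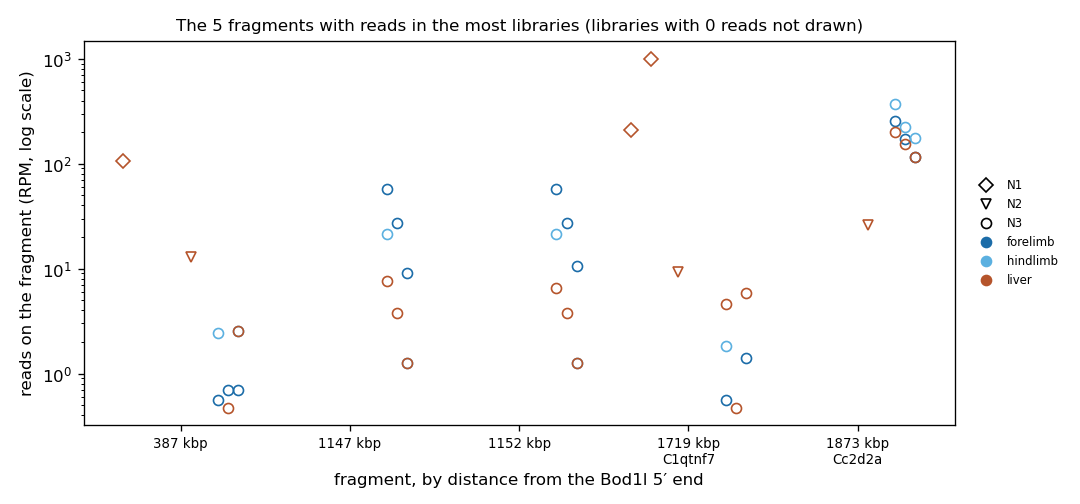
RPM (log axis) on the 5 fragments with reads in the most libraries, placed by distance from the *Bod1l* 5′ end, with the gene named where one overlaps. Shapes are viewpoints, colours are tissues, and libraries without a read are not drawn. The *Cc2d2a* fragment, at 1873 kbp, has 9 N3 points between 116 and 374 RPM, and the N3 points of the other 4 fragments reach at most 57.6 RPM.

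The highest N1 level belonged to chr5:42929990-42931415, in no gene, with 43 reads in forelimb replicate 2 and 1 in each liver library, so that 1 library carried 43 of its 46 reads. It had none from N2 or N3. The highest N2 level belonged to chr5:41889848-41890464, also in no gene, with 24 reads in liver replicate 3, 7 in hindlimb replicate 3 and 1 in hindlimb replicate 2.

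Many fragments with reads had a neighbour with the same number. Over all libraries, 575 of 832 (69.1%) equalled an adjoining fragment exactly, with a median per N1 library of 100%, per N2 library of 78.7% and per N3 library of 56.2%. Whether a single ligation was entered on both sides of its cut was not tested. With each run of equal neighbours taken once, limb minus liver in the share of N2 fragments was −2.52 percentage points (adjusted p = 0.0536, exact test), and no other result above changed its side of the threshold.

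Protein-coding genes with a 5′ end in the stretch were *Gm16223*, *Cpeb2*, *C1qtnf7*, *Cc2d2a*, *Fbxl5* and *Bst1*. The 25 kbp on each side of their starts were read as a contact with the promoter. The *Gm16223* start, 532 kbp from N3 and 902 kbp from N1, had reads in 3 N1, 2 N2 and 4 N3 libraries. The N1 reads were 12 in hindlimb replicate 3 and 14 and 8 in liver replicates 2 and 3. The N2 reads were 44 and 63 in liver replicates 1 and 3, with 0 in all 6 limb libraries.

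*Cpeb2*, which encodes an RNA-binding regulator of translation, had 44 N2 reads in liver replicate 1, at most 8 N3 reads in each of 3 libraries and none from N1. *C1qtnf7*, which encodes a secreted C1q and TNF related protein, had 3 N2 reads in 1 library, and N3 reads in 6 libraries, from 1 to 28. At the start of *Cc2d2a* reads came from 2 libraries of each viewpoint, the highest being 64 in N2 forelimb replicate 1, and the recurrent fragment described above lies outside that interval.

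*Fbxl5*, which encodes the iron-sensing subunit of a ubiquitin ligase, and *Bst1*, which encodes a cell-surface enzyme of the ADP-ribosyl cyclase family, start so close together that their intervals held the same reads. These came from 3 N2 and 5 N3 libraries, the highest being 50 in N2 forelimb replicate 3 and 174 in N3 forelimb replicate 1. No start had reads in more than 6 of the 9 libraries of any viewpoint.

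The 159 fragments that overlap a protein-coding gene were compared with the other 559. From N2 a larger share of gene fragments carried reads, 5.52% ± 8.85 against 4.02% ± 6.75 (SD, n = 9), in 8 of 9 libraries, with a mean log2 ratio of 0.68 ± 0.75 (adjusted p = 0.0234, exact sign-flip test). The ratio was 0.47 for N1 and 0.16 for N3 (adjusted p = 0.43 for both). Gene fragments were longer, with a median of 2.11 kbp against 1.43 kbp, and 15.7% of them against 40.3% had at least 50% repeat bases. The N2 ratio was 0.45 per kbp (adjusted p = 0.234) and 0.18 among fragments with fewer repeats (adjusted p = 0.707), so the N2 difference was not beyond the spread between libraries once length or repeat content was taken into account. Within the second megabase alone the ratio was 1.75 for N2 and 0.73 for N3, above 0 in 9 of 9 libraries for both (adjusted p = 0.00586 for both, exact sign-flip test), and 0.83 for N1 (adjusted p = 0.16). Length and repeat content were not taken into account there. N2 forelimb replicate 2 had no fragment with reads in the second megabase, nor did 3 N1 libraries. Gene fragments are the smaller set there, so adding 0.5 to each number gave such a library a value above 0. The N1 and N2 values there rest in part on this added number. By reads the N3 ratio over the whole stretch was 2.56 (adjusted p = 0.0117, exact test), and without the *Cc2d2a* fragment it was −0.46 (adjusted p = 0.402, exact test). Without liver replicate 3 the N2 shares were 2.67% of gene fragments and 1.86% of the others.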

How the data were processed

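The 27 4C-Seq libraries were grouped by viewpoint, tissue and replicate from their titles. Where another label field disagreed (the replicate number of hindlimb replicate 3, the enhancer of N3 liver), the title was followed. Per the labels and methods, the authors removed adapters (cutadapt 1.10), aligned to mm10 (BWA 0.7.10-r789), discarded blacklisted regions and any alignment under a mapping quality of 30, and summed the remainder per *BglII* fragment. The deposited counts are whole reads per fragment. The deposited signal column is the count divided by fragment length in kbp and was not used further. Depth per library limits precision as given in the text.

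Fragments within 20 kbp of the viewpoint were left out. Reads were scaled to the library total, with 0.5 added before log2. Single values were tested with exact two-sided permutation tests (Benjamini-Hochberg over the 3 viewpoints, threshold 0.05). The replicates of a tissue are separate pools of embryos, but the 3 viewpoints share a template, so their results are not independent. Whether the tissues of the same replicate number share embryos is not stated. Windows of 100 kbp were tested with edgeR 4.0.16 (quasi-likelihood, TMM, filterByExpr), and again with DESeq2 1.42.0, under R 4.3.3. Python 3.11.15 (scipy 1.17.1, pandas 2.3.3, numpy 2.4.6) gave all remaining values. The code of the tests was checked on simulated data. For edgeR these had a much smaller spread between replicates than the libraries here. The dispersion, a measure of that spread, was 2.33 (N1), 2.68 (N2) and 2.32 (N3) in the fits to these libraries. The check therefore does not show how large a difference the window test could call here. Repeats and *BglII* sites came from GRCm38.p6, whose sites on chromosome 5 coincide with the fragment ends, and genes from GENCODE vM21. Primers and the TAD came from the supplementary files.

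Named items were, by rule, windows called by edgeR (at most 3 per test), the 5 fragments with reads in the most libraries, the fragment with the highest level per viewpoint, protein-coding genes with a 5′ end in the stretch, and the first and last windows. Members, lists and tests were chosen with earlier results of these data known.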

Additional observations from a re-analysis of the deposited data

How the results depend on the processing

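Of 174 alternatives other than leaving out a library, over 30 results, 133 kept the direction and the side of the threshold. The lower share beyond the TAD end stayed past the threshold for N1 and N3 under each alternative except the replicate block, and for all viewpoints whichever library was left out. For N2 it was −1.28 with 2 reads required per fragment (adjusted p = 0.0898, exact test) and −0.49 relative to the other side. The cause of these changes was not tested.

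Deviations of same-numbered forelimb and hindlimb libraries had correlations of 0.147 to 0.218 (N1), 0.151 to 0.592 (N3) and −0.106 to 0.189 (N2). Between limb and liver they ran from −0.492 to 0.376, with 4 of 18 pairs above 0.1. These ranges overlap and were not tested, so they do not settle whether same-numbered libraries are paired. With the replicate number as a block, 3 blocks cannot give a p below 0.25 for the ratios, so the means of −2.32, −1.54 and −1.21 (TAD end), 1.10 (N2, first over second megabase) and 0.68 (N2, genes) were no longer called. The limb minus liver shares of −3.38 (N1) and −2.55 (N2) had an adjusted p of 0.0556 under the block in the exact permutation test. The block changed no other call, forelimb against hindlimb included (adjusted p = 1 in reads, exact test, and 0 windows).

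The limb minus liver share lost its call for N1 and N2 with reads in place of fragments (−0.47 and −2.31) and with fragments within 10 Mbp as the whole (−6.72 and −5.52), and for N2 with equal neighbours taken once (−2.52). With 1 library left out it ranged from −3.79 to −2.98 for N1, from −3.21 to −1.65 for N2 and from −1.31 to −0.086 for N3. Within 10 Mbp the viewpoint pairs turned to −0.50, −4.20 and −3.71, and at distances that all viewpoints have, N2 minus N3 was −0.0075.

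First over second megabase was 0.27 (N2) and −2.07 (N3) by reads, 0.27 and −0.21 by reads without the *Cc2d2a* fragment, and 0.42 and −0.29 with 2 reads required. Leaving out a library gave 0.82 to 1.33 for N2 and −0.0046 to 0.25 for N3. Against the other side, N3 was 1.47 by reads, 0.33 by reads without fragments in every N3 library, and N1 was 0.16 with 2 reads required.

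Gene over other fragments was −0.94 (N1) and 2.56 (N3) by reads, −0.93 (N1), 1.47 (N2, adjusted p = 0.0938, exact test) and −0.46 (N3) by reads without the *Cc2d2a* fragment, −0.041 (N1) and 1.15 (N2) with 2 reads required, 0.73 (N3) in the second megabase, 0.45 (N2) and −0.066 (N3) per kbp, and 0.18 (N2) and −0.16 (N3) among fragments with fewer repeats. Forelimb minus hindlimb in reads had no settled direction: against distant chromosome 5 reads it was 0.70 (N1) and −0.092 (N2), and with 1 library left out it ranged from −1.25 to 1.13 (N1), from −0.46 to 1.55 (N2) and from −0.16 to 0.53 (N3). Limb minus liver in N3 reads ranged from −0.53 to 0.19, the latter without liver replicate 3. DESeq2 called 1 window of the stretch for N2 where edgeR called 0.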

Other observations

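The fragment with reads in the most N2 libraries was chr5:42469593-42479204, 9.61 kbp long and in no gene, with 14 reads spread over 7 N2 libraries, 2 reads in 1 N3 library and none from N1. It was chosen after its values were seen.

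Libraries made from the same template shared fragments of the stretch. Between N2 and N3 libraries of the same tissue and replicate, 84 fragments were shared, 29.9% of the N2 fragments and 19.0% of the N3 fragments, against 12.1% and 7.67% between libraries of the same tissue and another replicate. Without liver replicate 3 the shares were 12.0% and 5.19% against 8.09% and 3.08%. Between N1 and N3 they were 7.69% of the N1 fragments for the same template and 11.5% for another tissue without liver replicate 3, on 4 and 33 shared fragments. Whether reads passed between viewpoints during the joint amplification was not tested.

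Within a viewpoint, libraries of the same tissue shared 18.9% of their fragments for N2 and libraries of different tissues 5.93%. For N3 the values were 21.4% and 22.1%, and for N1 8.33% and 3.70%. These values include liver replicate 3.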
